A study of Mus musculus with 4 samples.

Results

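Ionocyte-like microvillar cells of the mouse main olfactory epithelium were chosen by their RNA counts, and 257 cell barcodes of the 39715 that passed the quality limits met the rule. A barcode passed with at least 500 detected genes and at most 10% of its UMIs from mitochondrial genes. A UMI (unique molecular identifier) is a tag that lets each captured molecule be counted 1 time. A member had at least 4 UMIs of Ascl3, Foxi1 and Cftr together, at least 2 of the 3 genes detected, at most 15 UMIs of the olfactory neuron gene Omp and at most 30 UMIs of the sustentacular gene Cyp2g1. Members numbered 64 and 59 in the libraries of female 1 and 2, and 74 and 60 in those of male 1 and 2. The mice were C57BL/6J, wild type and 3 months old, 2 samples were female and 2 male, and the labels name no treatment. Values of 4 libraries are given in the order female 1, female 2, male 1 and male 2 unless stated. The tissue was dissociated with papain and captured with droplet chemistry that reads the 5′ ends of transcripts. The labels number the samples within a sex and do not say whether each was 1 animal, so p-values over libraries measure only the spread between these samples.

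Ionocytes are rare epithelial cells that move ions across a mucosal surface, and they are known from the airway, the kidney, the inner ear and the skin of fish and amphibians. In mammals they depend on the forkhead factor Foxi1, and in the airway they carry much of the RNA of the chloride channel Cftr. In the olfactory epithelium, cells with apical microvilli that are not neurons fall into Trpm5-positive tuft-like cells and cells marked by Ascl3, a basic helix-loop-helix factor also known from salivary duct progenitors.

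The libraries held 100725429 to 111577458 UMIs, and the members' summed counts held 579647, 545380, 556523 and 490255 UMIs. The median depth was 6574 UMIs per member and 9116 per other passing barcode. The median mitochondrial share was 4.96% in members and 2.09% in the others, and its part in the levels below was not tested. Levels are UMIs of a library's summed cells scaled to a total of 1e+06 (CPM), and each UMI is 1 molecule whatever the length of the transcript. Of the members, 3, 0, 4 and 4 carried a barcode that also occurred in another library. The Y chromosome genes matched the labelled sex in all 4 libraries.

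The rule genes were spread over most members. A UMI of Ascl3 was found in 224 members, of Foxi1 in 238 and of Cftr in 249, and 197 members had all 3. The median member held 3 UMIs of Ascl3, 4 of Foxi1 and 4 of Cftr. Just inside the limit, 24 members had 4 or 5 UMIs of the rule genes, and just outside it, 17 barcodes had 2 or 3 UMIs from at least 2 of these genes. Coch, which the rule did not use but which came with it as a marker, was found in 95.8% of the former (median 105.5 UMIs) and in 64.7% of the latter (median 65 UMIs). Another 99 barcodes met the rule for the markers but exceeded the limit of Omp (49 barcodes) or of Cyp2g1 (77 barcodes), and 91.9% of these held Coch. These 99 barcodes stand among the other barcodes in every comparison here.

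The label was then checked against genes known from airway ionocytes. Of 22 such genes, 21 were in the features and 19 passed the level minimum, a mean of at least 5 UMIs per library in the members, or expected there from the level of the others. Of these 19 genes, 14 were at least 4-fold higher in members than in the other barcodes of the same library in every library, with a median log2 ratio of 6.19. The background was 3.22% of 10960 genes, and its median log2 ratio was -0.14. The contrast served to choose the members, so these ratios describe them and were not tested. The 5 genes outside the call included Pde1c, at 524 ± 102 CPM against 514 ± 22.7, and Atp6v1b1, at 173 ± 35 CPM against 234 ± 6.23 (SD, n = 4). Foxi3 had no UMI in the members of any library. Of 15 markers of Trpm5 tuft cells 5 passed the level minimum, with 0 at least 4-fold higher in every library, 1 (Alox5ap) at least 4-fold lower and a median log2 ratio of 0.84. The summed level of the list ran from 102 to 171 CPM in members and from 150 to 166 CPM in the others. Chat, Gnat3, Plcb2, Sh2d6 and Sucnr1 were at 0 UMIs, and Trpm5 had 0, 2, 3 and 1 UMIs in the 4 libraries against 761 CPM in tuft-like barcodes. Ptgs1, a cyclooxygenase, was higher in every library, at 19.7 ± 6.04 CPM against 7.87 ± 0.252, and Rgs13, a regulator of G protein signalling, had 6, 24, 2 and 27 UMIs. In tuft-like barcodes Ptgs1 was at 541 and Rgs13 at 575 CPM.

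The members differed from the rest of the epithelium in many genes. In every library, 353 of 10960 genes (3.22%) were at least 4-fold higher in members and 548 (5.0%) at least 4-fold lower. A log2 ratio used a prior of 0.5 UMI per sum, and 247 of the lower genes but 1 of the higher genes had 0 member UMIs in some library, where the size of the ratio depends on that prior. Without the barcodes shared between libraries the counts were 348 and 533. Figures for single genes below are means over the 4 libraries with the SD between them.

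**Figure D1:**
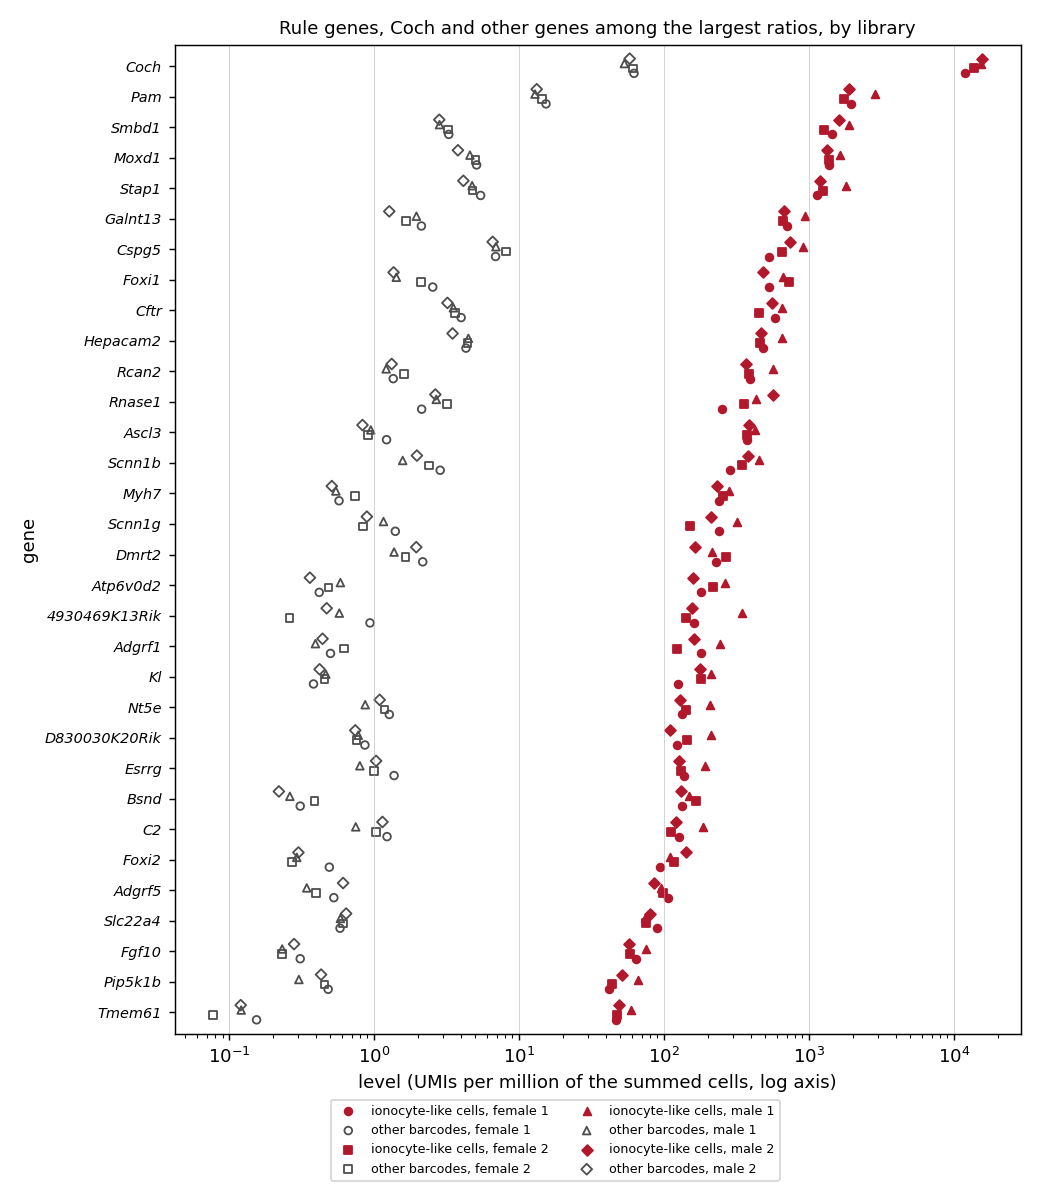
Level of the 3 rule genes and of genes among the 30 with the largest ratios, Coch included, in CPM on a log axis, with 1 point per library, filled for ionocyte-like cells and open for all other passing barcodes. Filled and open points are far apart for each gene drawn, and Coch lies at 11937 to 15616 CPM in the members.

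Among transcription factors, the members carried several besides the rule genes. Ascl3 (chr7:109727465-109731726) was at 373 (female 1), 374 (female 2), 426 (male 1) and 383 CPM (male 2), against 0.977 ± 0.168 CPM in the other barcodes (SD, n = 4). For Foxi1 (chr11:34204338-34208089) the levels were 529.6, 722, 659 and 481 CPM in the same order, against 1.86 ± 0.564. Foxi2, a second forkhead factor of the Foxi family, had 93.2, 117, 109.6 and 143 CPM against 0.339 ± 0.102. Tfcp2l1, a grainyhead-family factor of kidney collecting ducts and of airway ionocytes, stood at 521, 387, 549.8 and 396 CPM. Its level was 49.3 CPM in tuft-like, 31.5 in sustentacular-like and 2.64 in mature neuron-like barcodes. Esrrg, an orphan nuclear receptor, reached 146 ± 30 CPM against 1.05 ± 0.239, and Dmrt2, a DM-domain factor, 219 ± 44 CPM against 1.78 ± 0.347.

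Coch, the gene of the secreted protein cochlin of the inner ear, had the highest level of the 30 genes with the largest ratios. It lies at chr12:51593341-51605771 (plus strand, mm10 coordinates of GENCODE M21), and its level was 11937 (female 1), 13822 (female 2), 15469 (male 1) and 15616 CPM (male 2). The other barcodes had 58.6 ± 3.94 CPM, a log2 ratio of 7.92 ± 0.27 (SD, n = 4). The 2 sets of sums did not overlap, and both male sums lay above both female sums. After each cell was thinned to 2000 UMIs, a Coch UMI was found in 94.1% of 254 members and in 3.07% of sustentacular-like barcodes. Without thinning these shares were 94.6% and 12.2%, at median depths of 6574 and 14093 UMIs.

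Promoter sequences were taken for these genes from RefSeq (GRCm38.p6), which held an entry for 23 of the 30 genes with the largest ratios. The 250 bases before the start are shown for 3 genes: Coch for its level, Fgf10 because it holds the forkhead core TGTTTAC, and Hepacam2 because it holds the E-box CAGCTG, a motif of basic helix-loop-helix factors. Each is written 5′ to 3′ along the gene's own strand, with these motifs in capitals.
Coch (chr12:51593091-51593340, plus strand): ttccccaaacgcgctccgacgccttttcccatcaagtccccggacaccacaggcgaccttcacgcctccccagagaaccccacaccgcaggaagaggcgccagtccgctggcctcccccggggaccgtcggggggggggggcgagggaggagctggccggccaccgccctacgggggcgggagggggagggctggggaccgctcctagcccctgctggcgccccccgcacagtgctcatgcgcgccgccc
Fgf10 (chr13:118714449-118714698, plus strand): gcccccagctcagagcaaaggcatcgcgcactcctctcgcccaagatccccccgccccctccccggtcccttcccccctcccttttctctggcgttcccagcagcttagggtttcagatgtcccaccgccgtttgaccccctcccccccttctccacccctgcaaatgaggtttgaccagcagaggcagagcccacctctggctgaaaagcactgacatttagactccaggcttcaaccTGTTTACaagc
Hepacam2 (chr6:3494499-3494748, minus strand): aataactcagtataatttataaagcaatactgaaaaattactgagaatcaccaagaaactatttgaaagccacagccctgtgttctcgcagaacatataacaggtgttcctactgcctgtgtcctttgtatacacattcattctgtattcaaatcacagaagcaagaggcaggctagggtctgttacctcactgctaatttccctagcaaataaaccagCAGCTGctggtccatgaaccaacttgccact
The forkhead core begins 11 bases before the start of Fgf10, and the E-box begins 31 bases before that of Hepacam2. Coch holds neither motif in this window. On either strand, TGTTTAC occurred in 8.70% of the 23 genes, in 4.51% of the 266 genes with an entry among the 353 higher genes, in 2.87% of 8793 genes past the level minimum and in 3.54% of all 27025 genes of the table. CAGCTG, which reads the same on both strands, occurred in 21.7%, 18.4% and 13.7% of these sets, and in 14.7% of the whole table. TCAAGGTCA, a site known for estrogen-related receptors, occurred in 0 of the 23 genes and 0 of the 266, in 0.284% of the 8793 and in 0.422% of the whole table. These matches describe letters in a window and were not tested.

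Among chloride channels and carriers, 4 of the 22 genes past the level minimum (41 listed) were at least 4-fold higher in every library, against 3.22% of all genes. By any amount, 6 were lower in every library, against 37.7%. Cftr, the chloride and bicarbonate channel used by the rule, was at 583, 453, 656 and 557 CPM. Bsnd, which encodes barttin, an accessory subunit of chloride channels in kidney and inner ear, had 133 (female 1), 165 (female 2), 149 (male 1) and 131 CPM (male 2), against 0.295 ± 0.0714 CPM in the others. Member and other sums of Bsnd did not overlap, with log2 ratios of 8.73 to 9.19. Slc12a2, the sodium, potassium and chloride cotransporter that loads cells with chloride, was at 839 ± 93.7 CPM against 184 ± 6.46. Cftr, Bsnd and Slc12a2 were among the 4 genes that met the call, and the median log2 ratio of the 22 was 0.21. The exchanger genes of other ionocytes were scarce: Slc26a4, known as pendrin, had 6, 0, 0 and 0 UMIs, and Slc4a9 had 1, 0, 2 and 1.

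All 3 subunits of the epithelial sodium channel were high together. Scnn1b was at 283 (female 1), 343 (female 2), 451 (male 1) and 379 CPM (male 2), and Scnn1g at 239.8, 152, 316 and 210.1 CPM. In the other barcodes they had 2.20 ± 0.549 and 1.07 ± 0.259 CPM. Scnn1a, the pore subunit shared with many epithelia, had 415 ± 49.1 CPM in members against 26.8 ± 1.29 in the others. In basal-like barcodes Scnn1a was at 70.5 CPM and Scnn1b at 8.74. The 25 sodium and potassium transport genes past the level minimum (42 listed) had a median log2 ratio of 0.13. Of them 6 were at least 4-fold higher in every library and 1 lower, against 3.22% and 5.0% of all genes. Beside the sodium channel these were the two-pore potassium channels Kcnk1 (381 ± 43.2 CPM against 76.3 ± 3.03) and Kcnk5 (83 ± 14.1 against 3.91 ± 0.426), and the potassium channel subunit Kcne2. Kcne2 had 0, 3, 18 and 14 UMIs, and the UMIs came from 1.95% of the members. In female 1, with 0 UMIs against 0.127 CPM in the others, its call came from the prior of 0.5 UMI alone.

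The subunits of the proton pump differed among themselves. Of 22 subunit and accessory genes past the level minimum (25 listed), 2 were at least 4-fold higher in every library, 13 were higher in every library by any amount and 7 were lower in every library. Over all genes 3.22% were at least 4-fold higher, and the shares higher and lower by any amount were 27.4% and 37.7%. The median log2 ratio of the 22 was 0.73. Atp6v0d2, a subunit of the membrane sector, was at 181 (female 1), 216 (female 2), 264 (male 1) and 159 CPM (male 2), against 0.462 ± 0.0964 CPM in the others. Atp6ap2, the accessory protein known as the prorenin receptor, was at 951 ± 149 CPM against 182 ± 3.63. The subunits known from acid-secreting kidney cells lay below the other barcodes: Atp6v1b1 had a log2 ratio of -0.44 ± 0.31 and Atp6v0a4 of -1.21 ± 0.80. Both were highest in sustentacular-like barcodes among the 5 classes, at 648 and 217 CPM. Atp6v1b1 was at 189 CPM in tuft-like, 72.8 in basal-like and 17.7 in mature neuron-like barcodes.

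Of 16 carbonic anhydrases, which make bicarbonate and protons from CO2, 4 passed the level minimum. Of these, 0 were at least 4-fold higher in every library, against 3.22% of all genes. At least 4-fold lower was 1 (Car2), against 5.0% of all genes. Car2 had 5, 3, 1 and 2 UMIs, 5.0 ± 2.86 CPM against 57.3 ± 10.8. Car12 had 0, 0, 1 and 11 UMIs, and 11 of its 12 UMIs fell in male 2. None of 9 claudins of the tight junction past the level minimum met the 4-fold call, against 3.22% of all genes. By any amount, 6 were higher in every library, against 27.4%. Cldn7 had 747 ± 125 CPM against 223 ± 5.92, and Cldn10 185 ± 60.9 against 26.4 ± 3.52.

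**Figure D2:**
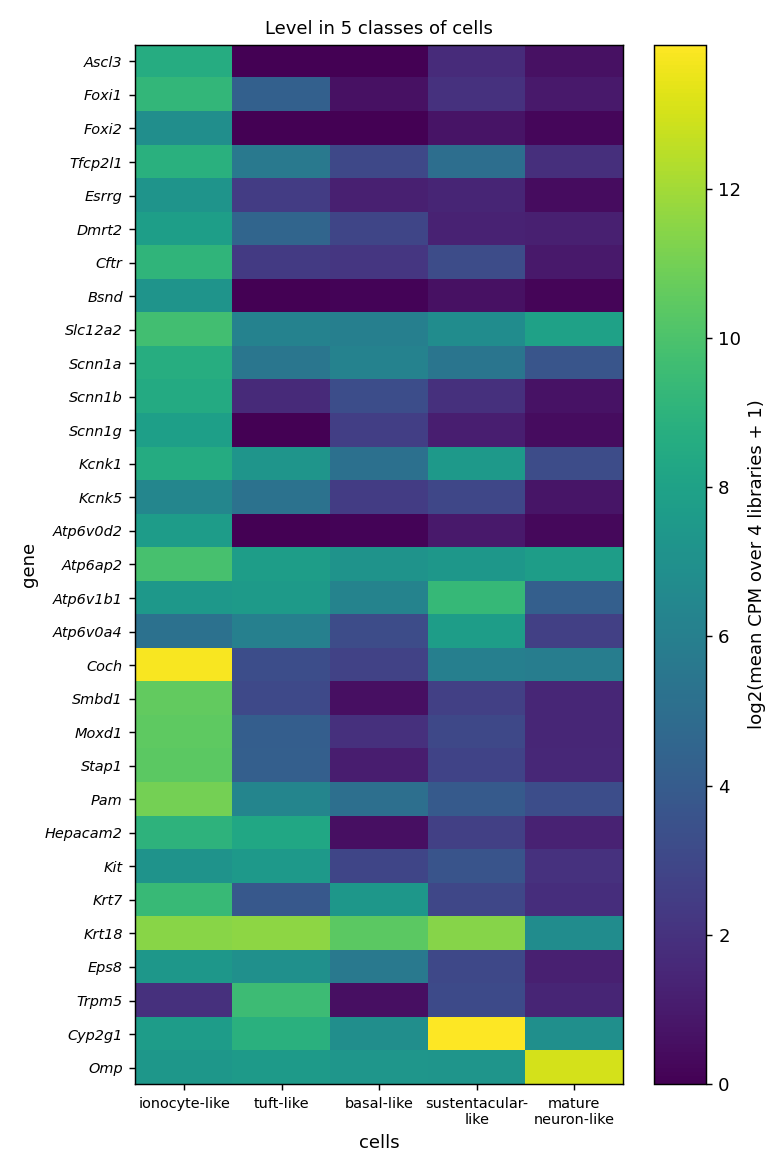
Level of genes named in the text, as log2 of the mean CPM over 4 libraries plus 1, in ionocyte-like members and in 4 other classes set by their own marker rules. Coch, Bsnd, Scnn1b, Scnn1g and Atp6v0d2 are bright in the members alone among the classes drawn, while Hepacam2, Kit and Krt18 are also bright in tuft-like barcodes.

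Genes of secretory proteins and enzymes were among the most abundant. Smbd1, which encodes a somatomedin B domain protein, was at 1439 (female 1), 1267 (female 2), 1880 (male 1) and 1611 CPM (male 2), against 3.04 ± 0.253 CPM. Moxd1, a copper-dependent monooxygenase of the dopamine beta-hydroxylase family, had 1372, 1370, 1632 and 1328 CPM against 4.61 ± 0.594. Pam, the enzyme that amidates the ends of secreted peptides, had 1937, 1755, 2841 and 1885 CPM against 14 ± 1.12, with male 1 the highest of the 4. Galnt13, an enzyme that starts mucin-type O-glycans, was at 744 ± 128 CPM, and Rnase1, a secreted ribonuclease, at 399 ± 131. The proteoglycan gene Cspg5 had 705 ± 157 CPM against 7.14 ± 0.704, and the complement component C2 136 ± 34.2 against 1.04 ± 0.209. Stap1, a signalling adaptor best known from B cells, was at 1140, 1240, 1806 and 1183 CPM against 4.76 ± 0.532.

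Receptors and signalling genes followed. Kl, the FGF23 co-receptor klotho, was at 124 (female 1), 179.7 (female 2), 210.2 (male 1) and 177 CPM (male 2), against 0.43 ± 0.0373 CPM. The adhesion receptors Adgrf1 and Adgrf5 had means of 177 and 96.7 CPM against 0.488 and 0.47. Fgf10, a growth factor of epithelial budding, was at 63.8, 58.7, 75.5 and 57.1 CPM, and its UMIs were found in 39.3% of members. The 14 calcium, purinergic and peptide genes past the level minimum (27 listed) had a median log2 ratio of 0.73. At least 4-fold higher in every library were 4 of them, against 3.22% of all genes. These were Itpr3, an IP3 receptor of the calcium store (239 ± 34.9 CPM against 3.93 ± 0.597), P2ry14, the receptor for UDP-glucose (198 ± 68.4 against 5.60 ± 0.186), Nt5e, which makes adenosine from AMP (153 ± 37.5 against 1.10 ± 0.173), and Plcb1, a phospholipase C (21 ± 10.4 against 1.02 ± 0.118). The neuropeptide gene Npy, known from microvillar cells of this epithelium, had 0 UMIs in all 257 members. That 0 allows up to 3 UMIs of the members' total by counting error alone.

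The stem cell factor receptor Kit was at 143 ± 35.6 CPM in members, 179.7 in tuft-like and 6.38 in basal-like barcodes. Among 19 Notch pathway genes past the level minimum (23 listed), 2 were at least 4-fold higher in every library, against 3.22% of all genes. These were the ligands Dll1 and Dll4, at 58.3 ± 6.29 and 16 ± 4.29 CPM, and the median log2 ratio of the list was -0.47. Dll1 was higher still in basal-like barcodes, at 142 CPM. The receptor Notch1 was at 20.4 ± 4.53 CPM against 20.7 ± 1.82, and the target Hes1 at 151 ± 17.4 against 79.2 ± 5.70. Of 7 hormone receptors past the level minimum (17 listed), 2 met the call, against 3.22% of all genes. The estrogen receptor Esr1 had 8, 5, 5 and 7 UMIs and a UMI in 8.95% of members, against 0.144% of sustentacular-like barcodes. The beta-adrenergic receptor Adrb1 had 9, 10, 16 and 6 UMIs.

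Structural and metabolic genes differed in single members of each list. Of 18 microvillar actin genes past the level minimum (28 listed), 3 were at least 4-fold higher in every library, against 3.22% of all genes. Among them were Eps8, which caps actin filaments (166 ± 8.55 CPM against 6.94 ± 1.08), and its relative Eps8l2 (96.5 ± 19 against 5.35 ± 1.16). The membrane linker Ezr was at 555 ± 25.6 CPM in members and 593 in sustentacular-like barcodes. Myh7, the slow myosin heavy chain of heart and skeletal muscle, was at 239.8, 257, 280.3 and 233 CPM in the 4 libraries. The keratin Krt7 had 554, 623, 765 and 734 CPM against 12.9 ± 3.49, while the simple keratins Krt8 and Krt18 were at 1549 ± 180.4 and 2836 ± 321 CPM in members and at 1401 and 2660 in sustentacular-like barcodes. Of 16 glycolysis genes, 2 met the call, against 3.22% of all genes. They were Ldha, lactate dehydrogenase, at 717 ± 80.9 CPM against 105 ± 7.85, and Pfkp, a phosphofructokinase, at 436 ± 73.9 against 40.6 ± 2.61. Of 88 nuclear genes of oxidative phosphorylation, 2 met the call, a share below the 3.22% of all genes. These were the cytochrome oxidase subunits Cox8b (404 ± 121 against 12.7 ± 2.57) and Cox6b2. By any amount, 47 of the 88 were higher and 18 lower in every library, against 27.4% and 37.7%, with a median log2 ratio of 0.15. Immediate early and stress genes, which dissociation can raise, were higher too: 16 of 22 were higher in every library, against 27.4% of all genes, and the heat shock genes Hspa1a (2771 ± 339 against 376 ± 31.4) and Hspa1b met the 4-fold call. The part of dissociation in the other differences was not tested.

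Neurexins, named in the title of the series, and their partners were mostly low. Of 10 such genes past the level minimum (20 listed), 8 were lower in every library, against 37.7% of all genes, and 3 at least 4-fold lower, against 5.0%. Nrxn2 had 4, 2, 0 and 1 UMIs in the members and Nrxn3 4, 4, 3 and 3. Clstn2, a calsyntenin, was at 18.7 ± 10.9 CPM against 337 ± 8.17, and Nlgn3, a neuroligin, had 1, 1, 1 and 0 UMIs. The exception was Nlgn2, a neuroligin of inhibitory synapses, which had 8, 12, 14 and 9 UMIs and 19.8 ± 4.89 CPM against 2.59 ± 0.276, close to its level in basal-like barcodes of 17.7 CPM.

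Markers of the other cells of the tissue were counted in the members as well. All 11 markers of mature olfactory sensory neurons were at least 4-fold lower in every library, against 5.0% of all genes. The lowest genes by the naming rule included S100a5, a calcium-binding protein of these neurons (238 ± 59 CPM against 6474 ± 1364), Stoml3, Chga, Nsg1, Nrn1l, Carns1, Plekhb1, Stom and Nqo1. Sult6b1, a sulfotransferase highest in sustentacular-like barcodes among the classes, had 1, 0, 0 and 0 UMIs. The rule capped Omp and Cyp2g1, so a low level of neuronal and sustentacular genes is in part fixed by the choice of members. Of 9 gland and respiratory markers past the level minimum (11 listed), the summed level ran from 12194 to 67900 CPM in members and from 6755 to 9670 CPM in the others, and Muc5ac and Scgb1a1 were at 0. This sum followed Bpifa1, a secreted protein of airway and gland cells, which had 63187 (female 1), 34290 (female 2), 23289 (male 1) and 11058 CPM (male 2). A Bpifa1 UMI was found in 82.9% of members and 84% of sustentacular-like barcodes, and 14 members held at least 100 of its UMIs each. Of 6 immune markers past the level minimum (10 listed), 1 (Lyz2) met the higher call, against 3.22% of all genes. The lower call was met by 3 (C1qa, C1qb and S100a9), against 5.0%. Most Lyz2 UMIs, 5101, lay in 23 members described below. The summed level of the 10 markers ran from 1087 to 4194 CPM in members and from 527 to 825 CPM in the others. Cd74, which presents antigens with class II proteins, had 126, 465, 20 and 182 UMIs, and Ptprc, Cd3e, Cd79a and Nkg7 were at 0.

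The members were not alike among themselves. By the levels of Coch and of Lyz2, a lysozyme gene, 3 subsets were drawn after these values were seen, so they were described and not tested. The Lyz2-rich subset held the 23 members with at least 20 Lyz2 UMIs (7, 5, 5 and 6 by library). The Coch-poor subset held the 22 others with under 3000 CPM of Coch in the cell (10, 4, 5 and 3). The remaining 212 members, 82.5%, formed the Coch-rich subset (47, 50, 64 and 51). Between 2000 and 4500 CPM of Coch lay 15 members, and 8 had 5 to 40 Lyz2 UMIs. Beside subsets of 22 and 23 cells these are not few, so the subset sizes depend on where the limits lie. Median depths were 6219 UMIs in Coch-rich, 9832 in Coch-poor and 11172 in Lyz2-rich members.

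**Figure D3:**
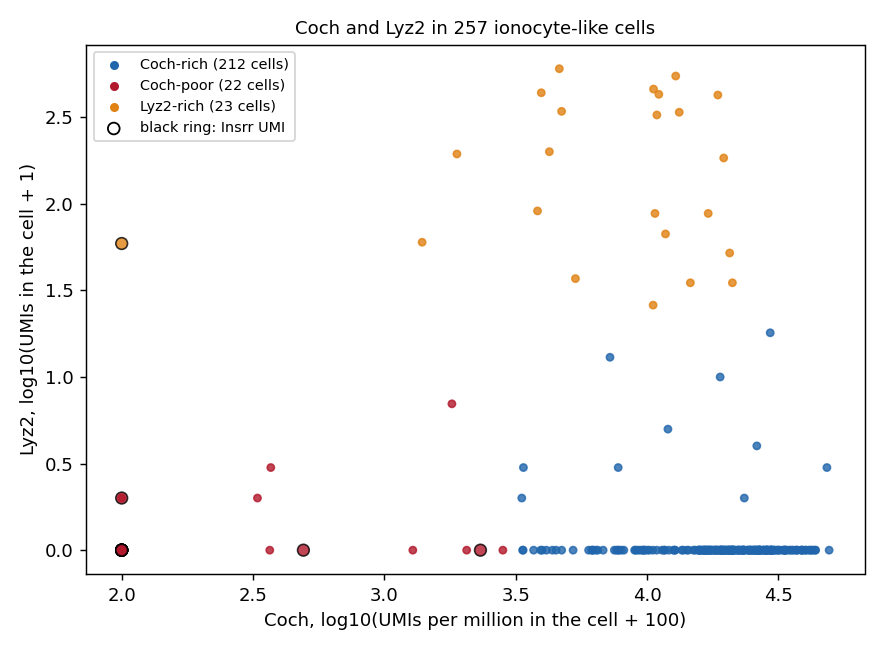
Each point is 1 of 257 ionocyte-like cells, with Coch as log10 of its CPM in the cell plus 100 and Lyz2 as log10 of UMIs plus 1. Most of the 212 Coch-rich cells lie along the bottom right, and black rings mark cells with a UMI of Insrr, 13 of them among the 22 Coch-poor cells.

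The Coch-poor members differed in several genes beside Coch. Of the 22, 13 had no Coch UMI at all, and 14 had all 3 rule genes. Over these cells Foxi1 was at 591 CPM, Ascl3 at 183 and Cftr at 351. Over the Coch-rich cells the 3 rule genes were at 650.1, 427 and 642 CPM in the same order. Kl, C2 and Pgf, a placental growth factor gene, had 0 UMIs in the Coch-poor members, while a Kl UMI was found in 66.5% of Coch-rich members. Scnn1b was found in 9.09% against 86.3%, Scnn1g in 9.09% against 74.5%, and Bsnd in 9.09% against 66.5%. In the other direction, Insrr was found in 13 of 22 Coch-poor members, in 0 of 212 Coch-rich members and in 1 of 23 Lyz2-rich members. Insrr encodes a receptor of the insulin receptor family that senses alkaline pH and is known from base-secreting cells of the kidney. Atp6v1b1, the proton pump subunit that over all members lay below the pooled other barcodes, had a UMI in 77.3% of Coch-poor and 30.7% of Coch-rich members, at 320.3 and 152 CPM. In Lyz2-rich members its share was 82.6%, at 161 CPM, and in sustentacular-like barcodes its share was 98.2%. The shares of the subsets were taken without thinning, at the unlike median depths given above. Svopl, a transporter-like gene, was found in 63.6% against 4.72%, and Mdk, the growth factor midkine, in 59.1% against 10.8%. Svopl was at 252 CPM in Coch-poor members and 232 CPM in sustentacular-like barcodes, and Mdk at 397 and 149. Some other genes that are high in sustentacular-like barcodes were higher with them, but not all. Cbr2 was at 4244 CPM in Coch-poor and 1381 in Coch-rich members, Cyp2a5 at 3413 and 1749, and Dcn at 1121 and 118. Sult1c1, at 1475 CPM in sustentacular-like barcodes, went the other way, at 316 and 1295 CPM. Cyp2g1, which the rule capped, was at 278 and 222 CPM. The part of such genes in the difference was not tested. Penk, the gene of the enkephalin peptides, had 234 UMIs in 9 Coch-poor members and 8 UMIs in 6 Coch-rich ones. Of the 234, 137 lay in 1 member of female 2, and the Coch-poor levels were 880, 2135, 118 and 222 CPM by library.

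The Lyz2-rich members differed from the Coch-rich ones in other genes. Ascl3 was found in 100% of the 23 and Smbd1 in 100%, and Coch was at 7632 CPM over these cells against 17886 over the Coch-rich ones. Pigr, which carries antibodies across epithelia, was found in 65.2% against 2.83% of Coch-rich members. The chemokine gene Cxcl17 was found in 73.9% against 4.72%, the peptide hormone gene Cck in 52.2% against 1.42%, and the forkhead factor Foxa1 in 60.9% against 1.89%. Moxd1 and Adgrb1 were at 385 and 17 CPM in Lyz2-rich and 1819 and 209 CPM in Coch-rich members. Bpifa1 made up 101216 CPM of Lyz2-rich and 121457 CPM of Coch-poor members against 3938 CPM of Coch-rich ones, and Reg3g, an antimicrobial lectin gene, 8726, 5170 and 269.8 CPM. These Bpifa1 sums came from few cells. In 6 of 22 Coch-poor, 4 of 23 Lyz2-rich and 1 of 212 Coch-rich members it had at least 1000 UMIs, and these held 99.9%, 97.1% and 92.0% of the Bpifa1 UMIs of their subset. Without them Bpifa1 was at 307 CPM in Coch-poor, 4531 in Lyz2-rich and 320 in Coch-rich members. The Lyz2-rich value again came mostly from few cells, with 605, 222 and 131 UMIs, while no other remaining Lyz2-rich member held more than 27. Of the 13 Coch-poor members with an Insrr UMI, 11 were among the 16 without high Bpifa1. Scores against simulated doublets would have removed 4 Coch-rich members and 0 of the other 2 subsets. The simulated doublets paired random barcodes of a library, so few of them held a member. Pairs of a member with another rare cell were therefore hardly covered by the scores.

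**Figure D4:**
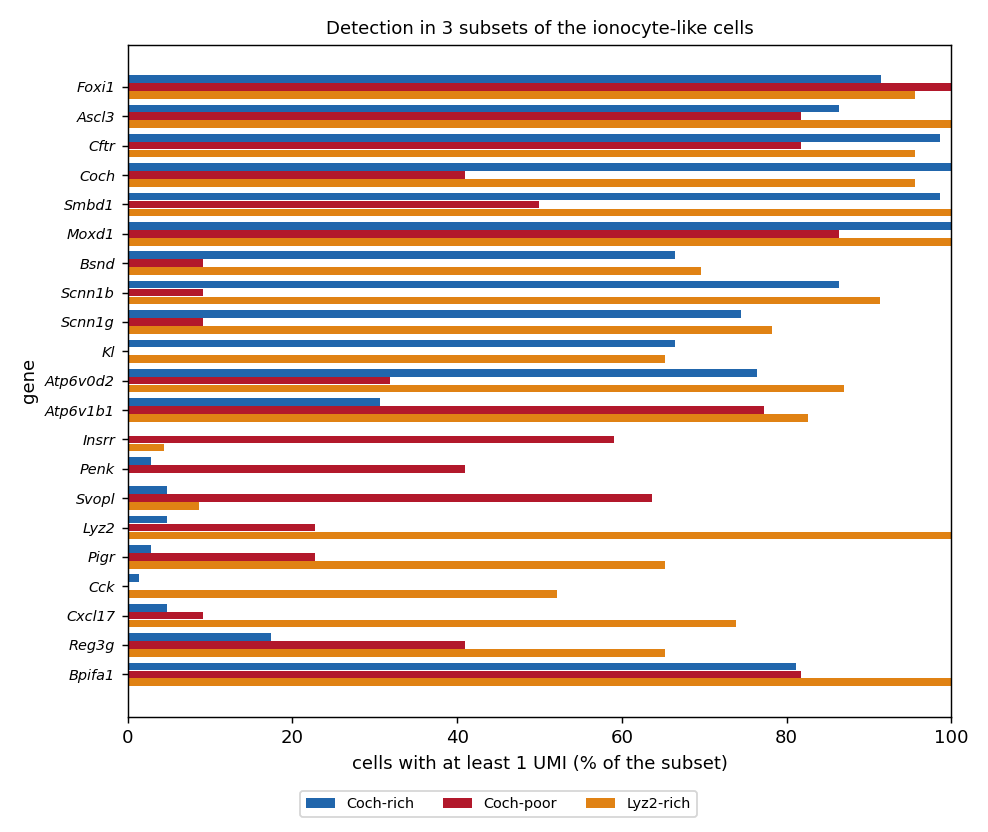
Share of cells with at least 1 UMI of each gene drawn in the Coch-rich (212 cells), Coch-poor (22 cells) and Lyz2-rich (23 cells) subsets, in percent. Kl and Scnn1b bars are long in Coch-rich and Lyz2-rich cells and short or missing in Coch-poor cells, whereas Insrr and Svopl show the reverse.

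Over all members, the 10 genes of highest variance for their mean after thinning to 2000 UMIs were Bpifa1, Lyz2, Reg3g, Lars2, Scgb1c1, Crabp1, Cdkn1c, Coch, Prdx6 and Penk. The ratio of variance to mean was 531 for Bpifa1 and 44.1 for Lyz2, against 1.82 for Foxi1 and 1.51 for Slc12a2. For Crabp1, a retinoic acid binding protein, the 15 members with the most UMIs held 97.7% of the UMIs. For Cdkn1c, a cell cycle inhibitor, they held 80.1%.

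The share of ionocyte-like cells was compared between the sexes. It was 0.626% in female 1 (exact 95% interval 0.483 to 0.799), 0.604% in female 2 (0.460 to 0.779), 0.766% in male 1 (0.602 to 0.960) and 0.596% in male 2 (0.455 to 0.766), where the intervals cover counting error only. The means were 0.615% ± 0.015 in females and 0.681% ± 0.12 in males (SD, n = 2 each). The male libraries lay on both sides of the females, and an exact two-sided permutation test gave p = 1, where the smallest p that 2 against 2 allows is 0.333. The sign of the difference rested on male 1, since without it the male value was lower by 0.019 percentage points.

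Expression within the members was then compared between the sexes with edgeR's quasi-likelihood test on the library sums. An adjusted p below 0.05 was reached by 2 of 8093 genes (0.0247%), and an unadjusted one by 375. Eif2s3y of the Y chromosome had 0, 0, 41 and 33 UMIs (edgeR, adjusted p = 0.0442), and Ddx3y, also on Y, had 0, 0, 37 and 19 UMIs (adjusted p = 0.0736). Reg3g had 2348, 1829, 414 and 265 UMIs, or 4051, 3354, 744 and 541 CPM. It was lower in males by a log2 value of -2.54 (SE 0.20, adjusted p = 0.00956, edgeR), and both female sums lay above both male sums. Its UMIs sat in few cells, as 3 female members held 68.3% of the female UMIs. Reg3g passed no longer when members above 12000 UMIs were left out, under the stricter marker rule, or under stricter limits on Omp and Cyp2g1, while Eif2s3y was lost when doublet scores were used.

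The genes that mark these cells did not pass the test. Of 33 named genes, the 3 rule genes and the 30 with the largest ratios, 0 passed in edgeR, and their smallest adjusted p was 0.848. An unadjusted p below 0.05 was found for 4 of them. Log2 values of male over female ran from -0.41 for Dmrt2 to 0.72 for 4930469K13Rik, and 28 of the 33 were above 0. The share above 0 among all 8093 genes was not counted. The 33 values come from the same sums, so the 28 are not separate results. Coch-poor members, which were low in several of these genes, numbered 10, 4, 5 and 3 by library, and their part was not tested. Coch had a value of 0.26 (SE 0.12), Foxi1 of -0.15 (SE 0.20), Cftr of 0.21 (SE 0.18) and Ascl3 of 0.10 (SE 0.15).

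**Figure D5:**
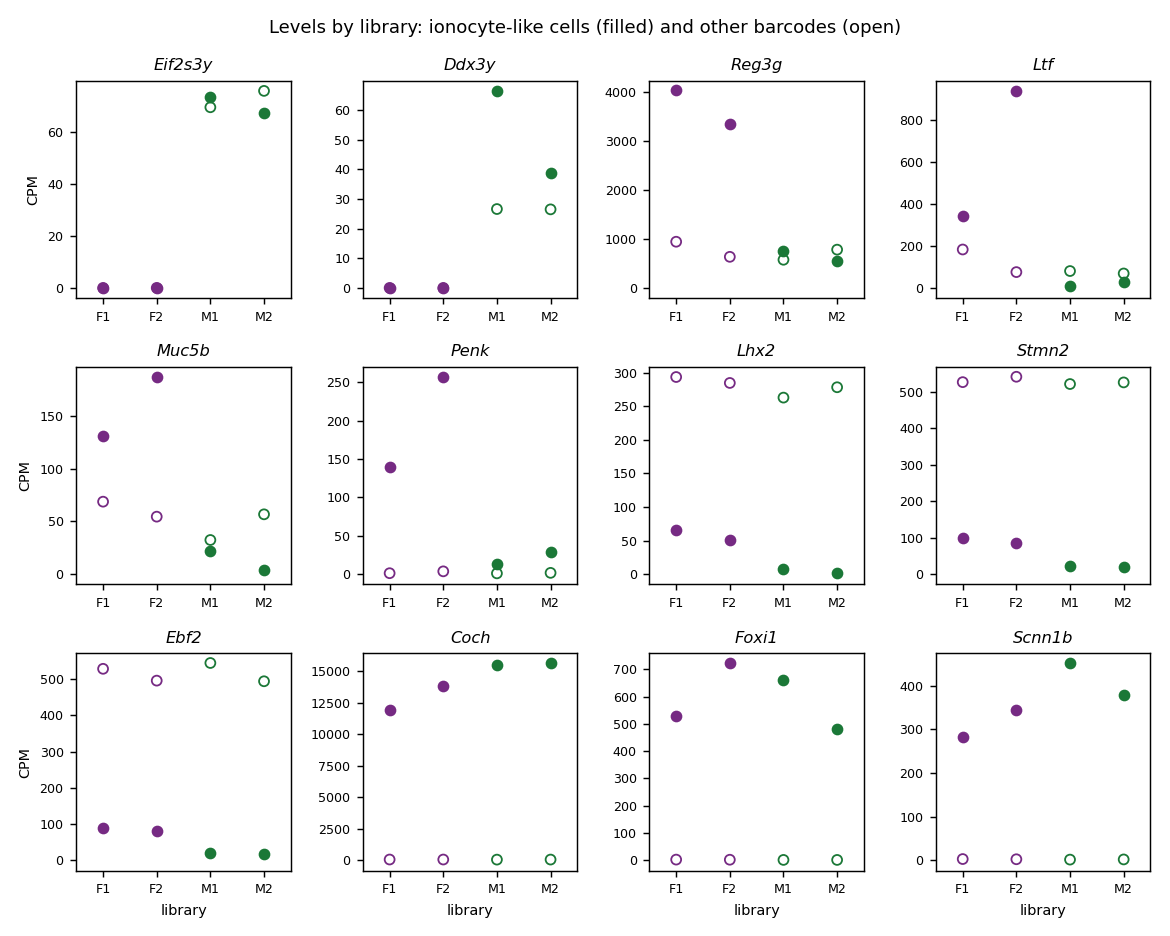
CPM of 12 genes in each library (F1 and F2 female, M1 and M2 male), filled for ionocyte-like cells and open for the other barcodes. Eif2s3y and Ddx3y lie at 0 in the female members, Reg3g is higher in both female member sums, and Coch, Foxi1 and Scnn1b show filled points far above open ones in all 4 libraries.

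Whether the sex difference of the members departed from that of all other barcodes was tested with a term for class and sex over 8 sums, with the library as a block. Of 16183 genes, 24 (0.148%) passed in edgeR at an adjusted p of 0.05, 1 with a more male-biased level in members and 23 with a more female-biased one. Beside Reg3g (-2.34, SE 0.23, edgeR, adjusted p = 0.00014), the genes of lowest p included Lhx2, Ebf1, Ebf2, Stmn2, Stmn3 and Elavl3. Lhx2, a LIM homeodomain factor of olfactory neurons, had 38, 28, 4 and 1 UMIs in the members. Its level was 65.6, 51.3, 7.19 and 2.04 CPM, below the 263 to 294 CPM of the other barcodes in each library. These UMIs were unevenly spread: 11 members (5, 5, 0 and 1) with at least 10 UMIs of Lhx2, Ebf1, Ebf2, Stmn2, Stmn3, Elavl3, Ell3 and Arhgdig together held 68.7% of the UMIs of these 8 genes, at a median depth of 17503 UMIs. The 7 listed markers of immature olfactory neurons, Stmn2 among them, summed to 621, 658, 282 and 241 CPM in the members and to 2584, 2610, 2525 and 2596 CPM in the other barcodes, and the part of RNA from such neurons was not tested. Without either male library 0 genes passed, with 456 (without male 1) and 833 (without male 2) at an unadjusted p under 0.05. With members above 12000 UMIs left out, 35 genes passed, 9 of them among the 24.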

How the data were processed

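The authors deposited 1 matrix of raw UMI counts per gene and barcode for each of 4 libraries, not normalized, made with Cell Ranger 6.0.2 per the file headers. The submitters' processing notes name Cell Ranger 5.0.1 and mm10, and the annotation and the calling of cells are not given in the sources used here. Genes were placed by gene ID on GENCODE M21 (GRCm38), where 22362 of 22399 IDs matched.

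Barcodes were chosen by the rule in the report, and doublets were scored but kept. The scores, from simulated doublets, would remove 3157 of 39715 passing barcodes, among them 4 members. Counts were summed per library over the members and over all other passing barcodes, 64, 59, 74 and 60 members from 10220, 9763, 9663 and 10069 barcodes, and scaled to CPM. Tuft-like, basal-like, sustentacular-like and mature neuron-like barcodes numbered 199, 1325, 6240 and 17896 and were set by their own markers, and 3 members also met the tuft-like or basal-like rule. Ratios used a prior of 0.5 UMI and genes with a mean of at least 5 UMIs. Because the rule used this contrast, it was described by the call of 4-fold in each of 4 libraries and not tested. Sex was tested with edgeR 4.0.16 (R 4.3.3; quasi-likelihood, TMM, filterByExpr, Benjamini-Hochberg at 0.05) on 2 sums against 2, after the script was tested on simulated counts, with DESeq2 1.42.0 as an alternative. Shares were tested by exact permutation, and their 95% intervals are Clopper-Pearson, for counting error only. Detection was read again with every cell thinned to 2000 UMIs, which left out 3 members.

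The named genes were the rule genes and Coch, the 30 with the largest smallest ratio over libraries among genes with at least 20 member UMIs in every library, the 10 lowest by the same measure, the called and the 4 most abundant genes of each list, the 10 of lowest p in each sex test and the 10 most variable. Genes of the 3 subsets, and others named with values outside this rule, were chosen after their values were seen. Some genes that the rule names are not reported here. The members and lists were chosen with earlier results of these data known. Library pairs differed by a chi-square per gene of 21.8 to 39.5, so no library repeated another. Alternatives changed the rule, limits, scaling, filter, tool, fold and replicates. The alternatives with Coch-rich members alone and without members above 12000 UMIs were added after seeing the data.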

Additional observations from a re-analysis of the deposited data

Results flagged for a closer look

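The sex difference of ionocyte-like cells departed from that of the other barcodes in 24 genes by the edgeR term for class and sex (adjusted p below 0.05). The term is the log2 difference of male over female in members minus that in the others, and it was -2.34 for Reg3g. It was -3.54 for Lhx2, -2.64 for Ebf1, -2.26 for Ebf2, -2.19 for Stmn2, -2.05 for Stmn3 and -2.38 for Elavl3, and it was -2.50 for Ell3, -2.14 for Arhgdig and -5.20 for Mef2b. The one gene with a value above 0 was Rgs5, at 1.47, named after its values were seen. Of the 46 female UMIs of Mef2b, 95.7% lay in 3 barcodes. For Rgs5, 3 male barcodes held 67.7% of 124 male UMIs. Without male 1 or without male 2, 0 genes passed, and the part of single deep barcodes in the 24 was not tested apart from the alternative without members above 12000 UMIs, where 9 of the 24 were among 35 that passed.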

How the results depend on the processing

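The 43 log2 ratios of members over other barcodes of the named higher and lower genes and the rule genes kept their sign under 14 alternatives (602 of 602 values), and moved by at most 0.76. The counts of 353 higher and 548 lower genes were within 1.5 times under the alternatives, except 202 and 183 at 8-fold and 351 lower genes with a mean of at least 20 UMIs. Leaving out 1 library gave 375 to 404 higher and 575 to 646 lower genes. TMM scaling shifted ratios by 0.06 and gave 370 and 509. The share in males minus that in females, 0.066 percentage points, was -0.028 under the stricter marker rule, and lay between -0.019 (without male 1) and 0.151 (without male 2) when 1 library was left out. The 2 genes called for sex became 24 with no filter, 7 with DESeq2, 4 under the stricter marker rule, 1 with doublet scores removed, 4 under stricter Omp and Cyp2g1 limits, 9 without shared barcodes, 17 in Coch-rich members alone and 5 without members above 12000 UMIs. Leaving out 1 library gave 12 to 260, where the lone library of a sex was taken to vary like the other group. With the replicate block 14 genes passed, but the labels do not say that samples of equal number were paired. The correlation of female 1 with male 1 was 0.035, and with 2 samples per sex it cannot decide this. The 24 genes of the class and sex term became 43 with no filter and 104 in Coch-rich members alone, and 0 to 87 when 1 library was left out (0 without either male). The cause of these changes was not tested. With 490255 to 579647 UMIs a library, genes under 5 UMIs per sum could not be described.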
